A study of Homo sapiens with 2 samples.

Results

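The genes described here are proteases that cut the extracellular matrix and cell-surface proteins, their lysosomal counterparts, and their inhibitors: the matrix metalloproteinases (MMP), the ADAM and ADAMTS families, the cathepsins, the tissue inhibitors of metalloproteinases (TIMP), the serpins and a few further genes of pericellular proteolysis. Members were taken by symbol from the array's probe-to-gene table, and a gene with several probe sets was represented by the one whose mean over both arrays was highest. The rule found 73 genes, covered by 78 probe sets, among 14884 named genes. It named 19 of the 23 protein-coding MMP genes in RefSeq, 19 of 20 ADAM genes, all 5 ADAMTS-like genes, all 4 TIMP genes and all 15 cathepsins, with RECK, BSG, HPSE and ST14. The serpins, the ADAMTS proteases, the plasminogen activators PLAU and PLAT, the receptor PLAUR, and MMP2, MMP3, MMP7 and MMP9 carry no symbol in that table and are not analysed here. Of the 73 genes, 66 are protein-coding. Another 6 are ADAM, ADAMTS and MMP pseudogenes and 1 is a long noncoding RNA, ADAMTS9-AS2.

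RNA came from A549, an established human lung adenocarcinoma cell line of epithelial shape. One array was made from cells kept in static culture for 4 h and 1 from cells kept in stretch culture for 4 h, with no other agent named. The title of the stretched sample spells the line differently, but its source name reads A549. How strongly, how often and by what device the cells were stretched is not given in the sources used here, and neither is how many cultures each RNA came from. With 1 array per condition there is no replicate check and no p-value, and a difference compares these 2 arrays only. In bulk RNA, fewer cells of a kind and less RNA per cell cannot be told apart.

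Signals are RMA values on the log2 scale (array brightness summarised per probe set), and every difference is stretch minus static. Over all probe sets the median signal was 2.57 on the static array and 2.47 on the stretched array. A set of 20 genes of unrelated tissues served as a guide to background: 95% of their signals lay at or below 3.97, called the background bound here, and their differences had a robust SD of 0.33. Of these 20 genes, 2 differed by 1.5-fold and 0 by 2-fold. Of the 5 fixed epithelial cell type markers, 4 were measured. The keratin KRT18 read 10.29 in static culture and was higher by 0.71 under stretch, and KRT8 read 4.60 and was higher by 0.87. EPCAM read 5.30 and 4.71, a difference of -0.59. KRT19 (3.77 and 3.78) lay within the background bound on both arrays. All 7 measured alveolar type II markers, 2 of 2 fibroblast markers and 3 of 3 endothelial markers lay within the background bound on both arrays. Of 3 measured macrophage and leukocyte markers, CSF1R lay within it, while CD14 read 5.13 and 5.53 and CD68 read 7.51 and 8.58.

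As background, ADAM proteases sit in the plasma membrane and release the outer part of growth factors, cytokines and adhesion molecules, a step called shedding. ADAM17 is the convertase of membrane-bound TNF, the cytokine named in the study's title, and ADAM10 cuts Notch receptors and cadherins. MMPs cut collagens, laminins and other matrix proteins and are held in check by TIMPs, of which TIMP3 also inhibits ADAM17. Cathepsins degrade proteins in the lysosome and can act on matrix when secreted.

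Promoter sequences were available from RefSeq for 45 of the 73 genes. The 5 stretches below are examples, and all but that of ADAM10 hold a match to a motif searched. They include the sheddases ADAM17 and ADAM10, which differed in response, and BSG, which was higher under stretch. The others are the lysosomal CTSA, and MMP10, one of a row of MMP genes with no signal over background. Capitals mark a match to 1 of 5 motifs searched on both strands of the 250 bases before the gene start, which were AP-1 (TGANTCA), TEAD (GGAATG), the CLEAR core of lysosomal genes (TCACGTGA), the TATA box (TATAAA) and NF-κB (GGG, any 3 bases, TTCC).
ADAM17, GRCh38.p14 chr2:9555931-9556080, - strand: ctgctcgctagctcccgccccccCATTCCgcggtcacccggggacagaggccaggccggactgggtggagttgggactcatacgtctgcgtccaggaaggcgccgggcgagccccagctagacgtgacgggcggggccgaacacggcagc
ADAM10, GRCh38.p14 chr15:58749808-58749957, - strand: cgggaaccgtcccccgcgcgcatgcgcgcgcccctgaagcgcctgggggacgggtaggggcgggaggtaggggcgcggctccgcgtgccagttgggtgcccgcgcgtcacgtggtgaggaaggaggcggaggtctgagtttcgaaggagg
BSG, GRCh38.p14 chr19:571163-571282, + strand: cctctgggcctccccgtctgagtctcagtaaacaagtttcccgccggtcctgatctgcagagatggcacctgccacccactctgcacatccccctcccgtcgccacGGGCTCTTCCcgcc
CTSA, GRCh38.p14 chr20:45891215-45891334, + strand: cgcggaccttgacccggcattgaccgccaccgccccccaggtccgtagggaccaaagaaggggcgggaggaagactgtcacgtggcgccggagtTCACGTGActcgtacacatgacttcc
MMP10, GRCh38.p14 chr11:102780629-102780748, - strand: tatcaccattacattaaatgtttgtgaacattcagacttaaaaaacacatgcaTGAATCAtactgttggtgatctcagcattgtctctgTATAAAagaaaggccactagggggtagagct
The ADAM17 and ADAM10 stretches are the first 150 of the 250 bases before the gene start, and the other 3 cover the last 120 bases before it. The capitals in ADAM17 are the reverse complement of the TEAD motif, in BSG the NF-κB motif, in CTSA the CLEAR core, and in MMP10 the AP-1 motif followed by a TATA box. The ADAM10 stretch holds no match.

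The TEAD letters were found in 1 of the 45 promoters, ADAM17, against 11.9% of 27305 RefSeq promoters. The AP-1 letters were found in 2 of 45, MMP10 and MMP20, against 6.6% of all promoters, and neither gene had signal over background. A TATA box was found in 8 of 45 promoters against 11.1%, the NF-κB letters in 3 (CTSE, ADAM19 and BSG) against 5.61%, and the CLEAR core in CTSA alone against 0.89%. No 2 of these motifs overlapped in a member promoter, and the matches are descriptions of sequence, not of bound factors. Of the 10 members at least 1.5-fold higher under stretch, 6 had a promoter in the table, 1 with the TEAD letters and 1 with the NF-κB letters. Base composition differed with level: GC made up a median of 73.6% of the 250 bases in the 19 members whose mean signal lay above the background bound, and 55.8% in the 26 members within it. The MMP10 stretch shown is 36.7% GC and the ADAM17 stretch 72.0%.

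Taken as a group, the proteases and inhibitors moved little between the arrays. Of the 73 genes, 49 passed the level filter (the higher value at 2.52, the median of all values, or above). Of these 49, 10 (20.4%) were at least 1.5-fold higher under stretch, where 27.7% of all 10981 named genes past the filter were, and 3 (6.12%) were at least 1.5-fold lower, where 8.9% of all were. None reached 2-fold higher, against 12.3% of all genes, and 1, TIMP3, was more than 2-fold lower, against 2.5%. The median difference was 0.10 over the members and 0.20 over all genes past the filter. The lean of the whole array toward higher values grew with signal, with a median of 0.37 for genes whose mean lay above the background bound and -0.02 for those within it, so the brighter members are read here against brighter genes. Among genes with a mean above the background bound, 10 of 27 members (37.0%) were at least 1.5-fold higher against 36.6% of 6614 genes, and 1 of 27 was lower against 4.94%. At 2-fold, 0 of the 27 were higher against 16.7% and 0 lower against 1.94%. As deposited, the 1.5-fold shares lie near the background of the array, and the 2-fold higher shares lie below it. The 10 and 3 became 2 and 4 after quantile normalization, where 16.5% of all genes past the filter were higher and 14.1% lower. They became 3 and 4 after a loess on level (18.5% and 12.2% of all). After centring on 5 reference genes, which lowers every difference by 0.61, they became 0 and 19 (7.9% and 37.8% of all). The 5 did not move alike: their mean difference was 0.61, but B2M among them stood at -0.22. All 10 stayed above 0 and all 3 below it in each of these scalings. With reference genes this outcome was fixed, because the shift lowers every gene and is no larger than the smallest of the 10 differences (0.61).

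**Figure D1:**
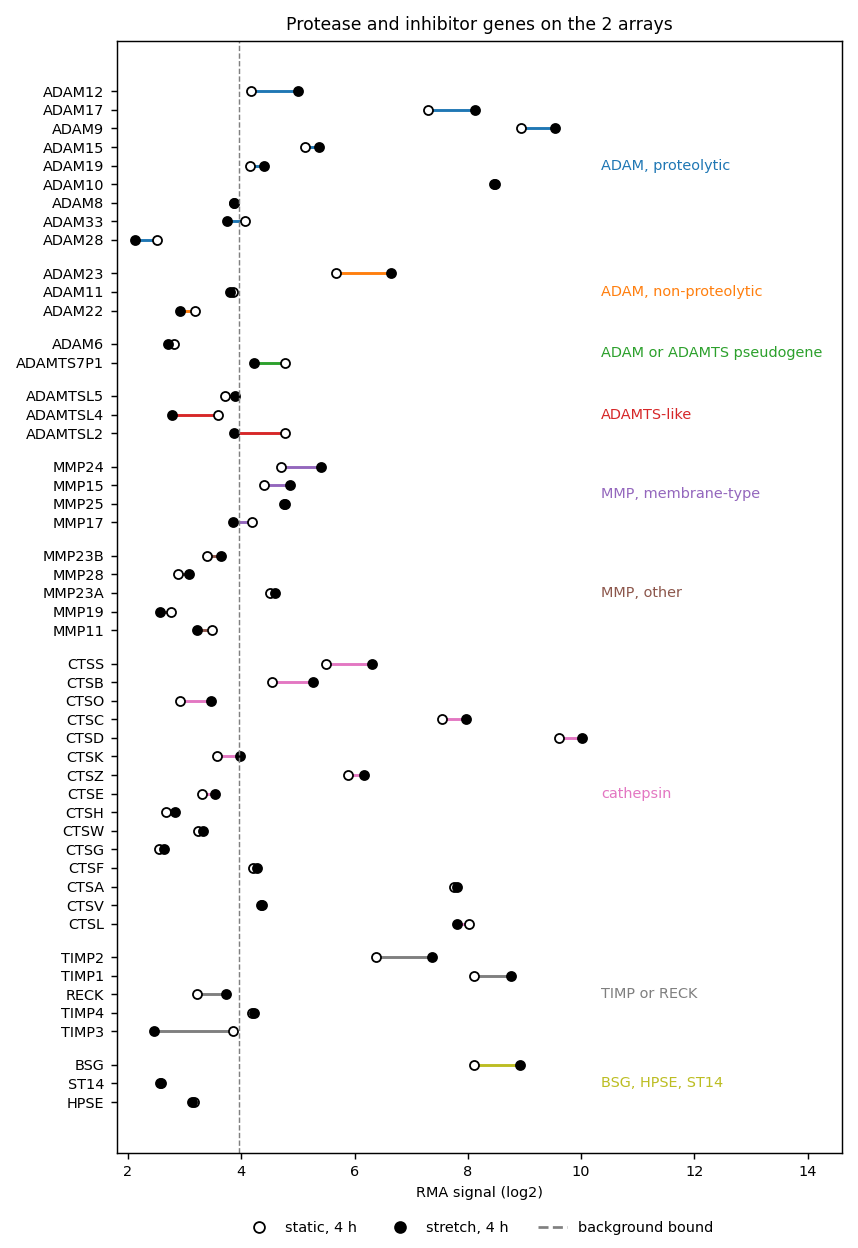
RMA signal (log2) of the 49 protease and inhibitor genes past the level filter on the static array (open circles) and the stretched array (filled circles), 1 array each, with lines joining the values of a gene and coloured by family; the dashed line is the background bound of 3.97. TIMP2, ADAM23, ADAM12 and ADAM17 have the widest gaps toward stretch, and TIMP3 the widest toward static.

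The membrane sheddases differed among themselves. Of 9 proteolytic ADAM genes past the filter, 3 were at least 1.5-fold higher (ADAM12, ADAM17 and ADAM9) and 0 lower. Their share of 33.3% compares with 27.7% of all genes past the filter. These 3 are among the 6 of the 9 that lay above the background bound on both arrays. Of all genes with a mean above that bound, 36.6% were higher. ADAM17, the TNF convertase, read 7.29 under static culture and 8.12 under stretch, a difference of 0.83 (1.78-fold). ADAM10, its closest relative and the other main sheddase of the cell surface, read 8.47 and 8.48, a difference of 0.01. The response of ADAM17 thus exceeded that of ADAM10 by 0.82, a gap that no shift of a whole array can alter and that stood at 0.79 after loess and 0.75 after quantile normalization. Taken alone, ADAM17 stood at 0.52 after loess, 0.56 after quantile normalization and 0.22 after centring on reference genes, and ADAM10 at -0.26, -0.19 and -0.60.

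ADAM9, a sheddase that also binds integrins, read 8.93 and 9.54, a difference of 0.61, the smallest of the 10 past 1.5-fold. CTSO, at 0.56, was the nearest below that threshold. Centred on reference genes, ADAM9 stood at 0.002. ADAM12, which is tied to fusion and growth-factor shedding, read 4.17 and 5.01, a difference of 0.84 from a static value close to the background bound. ADAM15 (5.12 and 5.37) and ADAM19 (4.15 and 4.40) both stood at 0.25. ADAM8, a leukocyte-associated sheddase, read 3.88 and 3.87. ADAM33 stood at -0.32 and ADAM28 at -0.39, the last within the background bound on both arrays. ADAM20, ADAM21 and ADAM30, known from testis, did not pass the filter.

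A further 7 measured ADAM genes encode proteins that lack the zinc-binding active site and serve adhesion or as receptors. ADAM23, an adhesion protein that binds integrin and the neuronal ligand LGI1, read 5.68 and 6.64, a difference of 0.96 (1.95-fold). It was one of 2 of the 10 members past 1.5-fold as deposited that kept this after loess, at 0.61, and stood at 0.54 after quantile normalization. Its relatives in LGI1 binding, ADAM22 (3.18 and 2.92) and ADAM11 (3.85 and 3.80), lay within the background bound on both arrays. The sperm-associated ADAM2, ADAM18, ADAM29 and ADAM32 did not pass the filter.

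The ADAMTS-like genes encode secreted matrix proteins with the ancillary domains of ADAMTS enzymes but no protease domain. Of the 3 past the filter, 2 were at least 1.5-fold lower, against 8.9% of all genes. The share was 4.94% of genes with a mean above the background bound, where ADAMTSL2 lay. It was 14.9% of those with a mean within it, where ADAMTSL4 lay. ADAMTSL2, which binds fibrillin microfibrils and restrains TGF-β availability, read 4.77 and 3.87, a difference of -0.90. Its stretched value lay within the background bound. ADAMTSL4, also a microfibril protein, read 3.59 and 2.78, a difference of -0.81 within the background bound on both arrays. ADAMTSL5 read 3.72 and 3.89, and ADAMTSL1 and ADAMTSL3 did not pass the filter. Both lower genes stayed past 1.5-fold after every scaling tried, at -1.13 and -0.78 after loess. Centring on reference genes lowers every difference, so that scaling could not have undone it. The pseudogene ADAMTS7P1 read 4.77 and 4.22, and its signal is uncertain because it resembles other gene copies. ADAM6, also a pseudogene, read 2.81 and 2.71, while ADAM3A, ADAM20P1, ADAM21P1 and ADAMTS9-AS2 did not pass the filter.

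Most of the measured MMP genes gave no signal over background. Of 20 measured, 9 passed the level filter and 4 lay above the background bound on both arrays. On chromosome 11, RefSeq places 8 protein-coding genes from MMP20 to MMP13 in 1 row, all of them MMPs, of which 7 were named (MMP20, MMP27, MMP8, MMP10, MMP1, MMP12 and MMP13). Their 14 signals ran from 1.46 to 2.33, and 0 of the 7 passed the filter. MMP1, the interstitial collagenase, read 2.33 and 1.58, a difference of -0.75 between values that both lay among those of genes of unrelated tissues. MMP14, the membrane collagenase that activates proMMP2, read 2.18 and 2.43 and did not pass the filter either, nor did MMP16, MMP21 and MMP26.

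The MMP genes above background were mostly of the membrane-bound type. MMP15 read 4.40 and 4.86, a difference of 0.46, and the GPI-anchored MMP25 read 4.78 and 4.76. The other probe sets of MMP25 read 3.46 and 4.08 (a difference of 0.62) and 2.05 and 2.35, and the mean of all 3 gave a difference of 0.30, so its value also depends on the probe set. MMP17, also GPI-anchored, read 4.19 and 3.86. MMP24 read 4.70 and 5.41, a difference of 0.71, but this value rests on the choice of probe set. Its second probe set read 5.35 and 4.72, a difference of -0.63, so that both had nearly the same mean and opposite signs, and their average stood at 0.04. MMP23A, a pseudogene, and MMP23B are almost identical in sequence, so their signals may be mixed; they stood at 0.10 and 0.25. MMP11 (3.48 and 3.21), MMP19 (2.76 and 2.56) and MMP28 (2.89 and 3.07) lay within the background bound.

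All 15 cathepsins passed the level filter, and 13 had a difference above 0, where 63.3% of all genes past the filter and 74.5% of those above the background bound did. Their median was 0.24, against 0.20 over all genes past the filter, and 0.20 after loess, against 0.04. After loess and after quantile normalization, 10 of the 15 lay above 0. Centred on reference genes, 13 of the 15 lay below 0, where the median of all genes past the filter was -0.41. The share of all genes above 0 was not computed for these scalings. CTSS, a cysteine protease active at neutral pH and known for elastin cleavage, read 5.49 and 6.30, a difference of 0.81. CTSB, a lysosomal cysteine protease often found at the surface of tumour cells, read 4.54 and 5.27, a difference of 0.73. These were the only 2 of the 15 (13.3%) past 1.5-fold, below the 27.7% of all genes. They stood at 0.45 and 0.42 after loess. CTSK, the collagen-degrading neighbour of CTSS with no protein-coding gene starting between them, read 3.57 and 3.98.

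The lysosomal housekeeping cathepsins stayed close to their static values. The aspartic protease CTSD read 9.61 and 10.02, and CTSC, which activates granule serine proteases, 7.55 and 7.96, both a difference of 0.41 that became -0.20 after centring on reference genes. CTSA, the protective protein of lysosomal neuraminidase, read 7.75 and 7.81, and CTSZ read 5.88 and 6.17. CTSL, a cysteine protease of the lysosome, read 8.02 and 7.81, a difference of -0.21, and was lower under stretch in all the scalings tried. Its close paralog CTSV read 4.37 and 4.34, and the probe sets of the pair may share signal. CTSS exceeded CTSL in response by 1.02, and by 0.96 after loess and 0.84 after quantile normalization. CTSO stood at 0.56, within the background bound on both arrays, as did CTSE, CTSG, CTSH and CTSW, with differences from 0.09 to 0.24, and CTSF read 4.21 and 4.28. CD68, a lysosomal glycoprotein among the macrophage markers, was higher by 1.07, and its part in the cathepsin values was not tested.

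The inhibitors of metalloproteinases differed, but the only lower one, TIMP3, had no signal over the background bound. TIMP2, which inhibits MMPs and also serves in proMMP2 activation, read 6.38 and 7.36, a difference of 0.98 (1.97-fold) and the highest among the members. TIMP1, the soluble inhibitor of most secreted MMPs, read 8.11 and 8.77, a difference of 0.66. TIMP3, which is bound to matrix and inhibits ADAM17 as well as MMPs, read 3.86 and 2.46, a difference of -1.40 (2.64-fold) and the lowest among the members. Both TIMP3 values lay within the background bound. TIMP4 read 4.19 and 4.22. The gap between TIMP2 and TIMP3 was 2.38, or 2.01 after loess and 1.75 when probe sets were averaged per gene.

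After loess TIMP2 stood at 0.64 and TIMP1 at 0.39, and TIMP3 at -1.37. The second probe set of TIMP3 read 2.10 and 1.96, and the mean of both gave -0.77. RECK, a membrane-anchored inhibitor of MMPs and ADAM10, read 3.22 and 3.73, a difference of 0.51 within the background bound on both arrays. The background genes also varied in this range of signal: 2 of the 20 were past 1.5-fold, GFAP at -0.72 and OTX2 at -0.99, both lower under stretch, which is the direction of TIMP3, ADAMTSL2 and ADAMTSL4. Their part in the result was not tested.

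BSG, also known as EMMPRIN or CD147, a membrane glycoprotein that induces MMP production in neighbouring cells, read 8.11 and 8.92, a difference of 0.81 (1.75-fold). It stood at 0.54 after loess and 0.60 after quantile normalization. HPSE, the heparanase that cleaves heparan sulfate, read 3.16 and 3.13, and ST14, the epithelial serine protease matriptase, 2.56 and 2.58. Both lay within the background bound on both arrays.

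**Figure D2:**
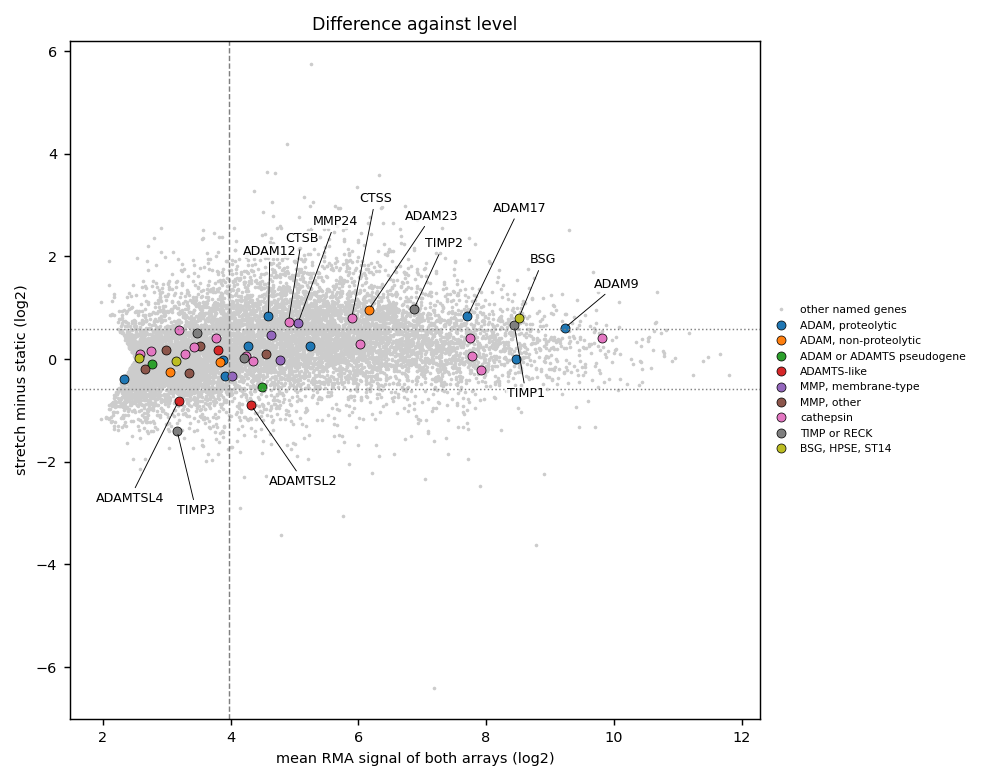
Difference (stretch minus static, log2) against the mean RMA signal of both arrays (log2) for all 10981 named genes past the level filter (grey) and the 49 protease and inhibitor genes (coloured by family), with dotted lines at 1.5-fold and a dashed line at the background bound. The members past 1.5-fold are labelled; the 10 higher ones lie to the right of the dashed line and none reaches a difference of 1.

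The scale of the arrays set how many members counted as changed. Only TIMP2 and ADAM23 of the 10 higher members kept 1.5-fold after loess, TIMP2 and BSG after quantile normalization, and none after centring on reference genes. TIMP3, ADAMTSL2 and ADAMTSL4 kept it in all of these.

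**Figure D3:**
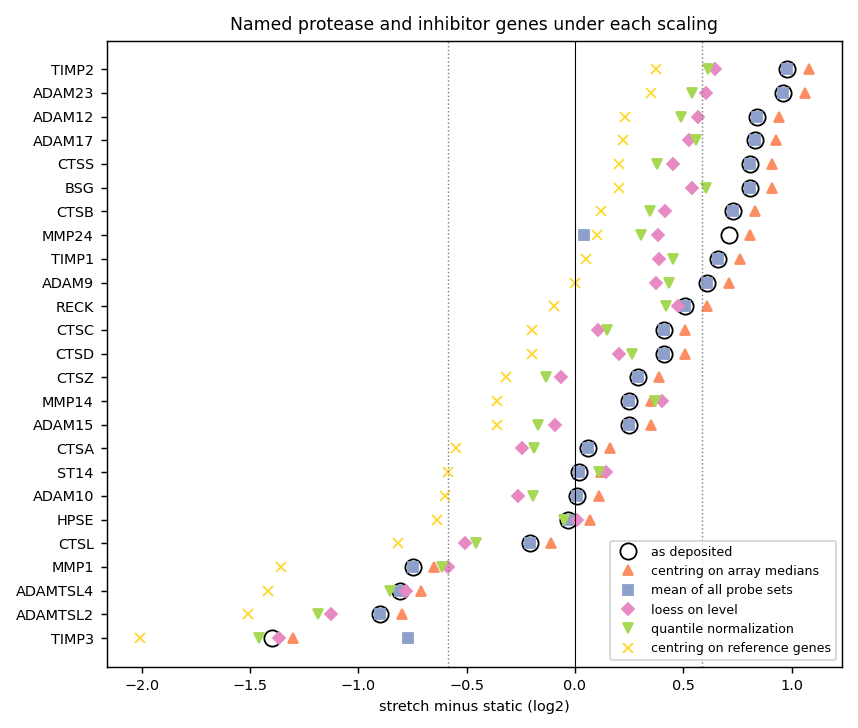
Difference (stretch minus static, log2) of the 25 named protease and inhibitor genes as deposited and under 5 other treatments of the values, 1 row per gene, with dotted lines at 1.5-fold. Centring on reference genes moves every gene left by 0.61 and centring on array medians moves every gene right by 0.10; TIMP3 is the lowest gene in all settings but the averaging of probe sets, where it stands at -0.77.

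Proteins released by ADAM sheddases were set beside the enzymes. Their list, like the other lists below, was chosen with earlier results of these data known. Its shares are therefore a description of the chosen genes and no independent evidence of an excess over all genes. It held 36 genes, of which 30 were measured and 26 passed the filter. Of these 26, 16 (61.5%) were past 1.5-fold, each of them higher, with a median difference of 0.69, against 27.7% and a median of 0.20 over all genes. At least 2-fold higher were 10 of the 26, against 12.3% of all genes past the filter. Among the 22 with a mean above the background bound, 14 (63.6%) were higher, against 36.6% of genes in that range. EREG, an EGF receptor ligand, read 6.77 and 9.67, a difference of 2.90. The receptor kinases AXL (6.03 and 8.59) and EPHA2 (4.98 and 7.42) and the proteoglycan SDC4 (6.70 and 8.95) stood at 2.56, 2.44 and 2.25. TNF itself, the substrate for which ADAM17 is named, read 3.46 and 3.27, within the background bound on both arrays. After loess 11 of the 26 were higher and 0 lower, where 18.5% of all genes were higher and 12.2% lower. Centred on reference genes 10 were higher and 4 lower, where 7.90% of all were higher and 37.8% lower.

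Partners that carry ADAM10 and ADAM17 to the surface and the convertases that mature them were also listed, 17 genes with 14 measured. All 14 passed the filter, 7 stood past 1.5-fold in the higher and 3 in the lower direction, against 27.7% and 8.9% of all genes, and the median difference was 0.48 against 0.20. TSPAN14, one of the tetraspanins that escort ADAM10, read 6.19 and 8.25, a difference of 2.06. RHBDF2 (iRhom2), which carries ADAM17 through the secretory pathway, read 4.79 and 5.99, a difference of 1.20. FRMD8, which stabilises the iRhom and ADAM17 complex, read 3.48 and 4.59, from a static value within the background bound. TSPAN5, another ADAM10 escort, read 2.46 and 3.43, within the background bound on both arrays. FURIN, the main convertase of ADAM and membrane-type MMP precursors, read 6.24 and 6.41. The 3 lower genes were PCSK5 (-0.88), TSPAN33 (-0.64) and TSPAN10 (-0.61), and these and FURIN were chosen after their values were seen. The 7 and 3 became 4 and 2 after loess, where 18.5% of all genes were higher and 12.2% lower. They became 4 and 3 after quantile normalization (16.5% and 14.1%), and 2 and 4 with reference genes (7.9% and 37.8%).

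Around the cathepsins, 15 of 29 listed lysosomal genes were measured, all past the filter. Of them 5 (33.3%) stood past 1.5-fold, all in the higher direction, near the 27.7% of all genes, and the median was 0.34. Of the 13 with a mean above the background bound 38.5% were higher, against 36.6% of genes in that range. After loess 2 of the 15 were higher, where 18.5% of all genes were, with a median of 0.002. Centred on reference genes 1 was higher and 4 lower, where 7.9% of all genes were higher and 37.8% lower. The mannose 6-phosphate receptors IGF2R (5.83 and 7.09) and M6PR (6.10 and 6.92), which sort cathepsins to the lysosome, stood at 1.26 and 0.82. PSAP, the precursor of the saposins, read 8.61 and 9.57, and TFE3, a regulator of lysosomal genes, 6.17 and 6.98.

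Inhibitors of cysteine and serine proteases had few higher members. Of 21 listed cystatins, Kunitz and related inhibitors, 16 were measured and 13 passed the filter. Past 1.5-fold there were 1 higher (7.69%) and 3 lower genes, against 27.7% and 8.9% of all genes, and the median was -0.15 against 0.20. CSTB, the intracellular inhibitor of cathepsins B, H and L, read 8.62 and 7.99, a difference of -0.63. CST2 (5.80 and 4.16) and CST4 (5.02 and 4.16), salivary-type cystatins, stood at -1.64 and -0.86, and as close paralogs their signals may be shared. TFPI2, a Kunitz inhibitor of plasmin and several matrix proteases, was the higher one and read 8.83 and 10.53, a difference of 1.70. After centring on reference genes 1 was higher and 9 of the 13 lower, where 7.9% of all genes were higher and 37.8% lower.

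**Figure D4:**
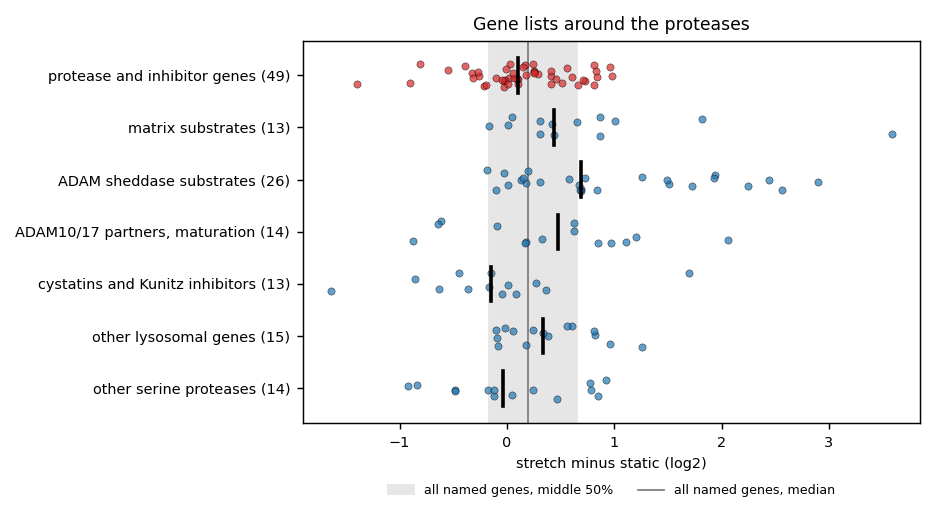
Differences (stretch minus static, log2) of the 49 protease and inhibitor genes (red) and of 6 surrounding lists (blue), 1 point per gene past the level filter with the number of genes in brackets; black bars are list medians, the grey band runs from -0.17 to 0.65, the middle 50% of all named genes, and the grey line is their median of 0.20. The proteases and inhibitors end at 0.98 while sheddase substrates reach 2.90, and the vertical spread of points carries no value.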

How the data were processed

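The deposited table holds log2 RMA values for 53617 probe sets on 2 arrays, with RMA named per the submitters' processing notes. Software, chip definition and genome build are not given in the sources used here, and how the authors normalized the arrays to each other is unknown. RMA compresses low signals and carries no detection calls, so folds of dim genes may come out too small. Names came from the annotation table of the platform (16098 probe sets with 1 symbol, 0 with several, 37519 unnamed here). All member symbols matched RefSeq (GRCh38.p14) by gene identifier. Differences, counts at 1.5-fold (0.585 on the log2 scale) and at 2-fold, and medians were computed from the deposited values with Python 3.11.15, numpy 2.4.6, pandas 2.3.3 and statsmodels 0.14.6 (loess span 0.3), and the counting was tested on simulated data. Arrays limit precision by their number, 1 per condition. The members and lists were chosen with earlier results of these data known. Named members are those past 1.5-fold and the level filter, the 15 with the highest mean signal, and a fixed set of well-known family members. Up to 4 genes with the largest differences were named per surrounding list. Other genes are named to account for every member past the filter or were chosen after their values were seen. Alternatives were other level filters, averaged probe sets, 4 other scalings, another fold threshold and a mean in place of the median.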

Additional observations from a re-analysis of the deposited data

How the results depend on the processing

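The count of 10 members at least 1.5-fold higher became 2 after quantile normalization, 3 after loess and 0 after centring on reference genes, and 16 at the lower fold threshold tried. In these settings 16.5%, 18.5%, 7.9% and 42.1% of all genes past the filter were higher, against 27.7% as deposited. The 3 lower became 1 when the filter was raised to the upper quartile or to the background bound, 19 after centring on reference genes and 6 at the lower fold threshold. The shares of all genes that were lower were 5.64%, 6.22%, 37.8% and 17.8% in that order, against 8.9% as deposited. Of members at least 2-fold higher there were 2 after centring on array medians (TIMP2 at 1.08 and ADAM23 at 1.06), against 0 as deposited. The 1 member more than 2-fold lower became 0 with the filter at the upper quartile or the background bound or with probe sets averaged, 2 after quantile normalization or loess, and 4 after centring on reference genes. The 2-fold shares of all genes were not computed for these settings, so the 2-fold counts cannot be read against the array. The median of 0.10 became -0.51 after centring on reference genes, where that of all genes was -0.41. Leaving out pseudogenes and the long noncoding RNA, an alternative added after seeing the data, gave a median of 0.16 with the same counts of 10 and 3. The cause of these shifts was not tested. No paired analysis was possible because each condition has 1 array.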

Other observations

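Matrix proteins that these enzymes cut form a list that was also chosen with earlier results of these data known, so its shares only describe it. They were measured for 14 of 34 listed genes, with 13 past the level filter. Of these, 6 (46.2%) were past 1.5-fold, each of them higher, with a median difference of 0.44, against 27.7% and 0.20 over all genes. CCN2, a matricellular growth factor, read 4.52 and 8.11, with its probe sets averaging a difference of 2.28, and THBS1 (thrombospondin 1) read 5.91 and 7.73. FBLN1 (fibulin 1) read 4.23 and 5.24 and AGRN (agrin) 5.27 and 6.14. Centred on reference genes, 2 of the 13 were higher and 2 lower, where 7.9% of all genes were higher and 37.8% lower. After loess 4 were higher and 0 lower, where 18.5% and 12.2% of all genes were. Quantile normalization also gave 4 and 0, where 16.5% and 14.1% of all genes were.

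Other membrane and secreted proteases and their receptors showed no lean in 1 direction. The list holds serine proteases and receptors, but also the metalloproteases ANPEP, ECE1 and MME. Of 31 listed genes, 17 were measured and 14 passed the filter. Of these 14, 4 (28.6%) stood past 1.5-fold on the higher side and 2 on the lower side. The shares of all genes were 27.7% and 8.9%, and the median of the list was -0.04. The thrombin receptor genes F2R (6.44 and 7.29) and THBD (3.59 and 4.51, from a static value within the background bound) were higher. So were ECE1 (6.52 and 7.30) and the kallikrein KLK10 (2.51 and 3.28, within the background bound on both arrays). Past the filter, KLK10 and KLK11 were the only serine proteases that reached 1.5-fold, and they differed in direction. KLK11, a secreted kallikrein, read 5.18 and 4.26 and the aminopeptidase ANPEP 3.89 and 3.05, the latter within the background bound on both arrays. After centring on reference genes 0 were higher and 7 of the 14 lower, where 7.9% of all genes were higher and 37.8% lower.

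Probe sets assigned to 1 gene did not always give the same difference. RefSeq places MMP24 and TIMP3 on the plus strand. The chosen MMP24 probe set lies, in identifier order, among named probe sets of its chromosome of which 13 of 14 belong to plus-strand genes, while all 12 around the second one belong to minus-strand genes. For TIMP3 the counts were 11 of 12 plus-strand around the chosen probe set and 13 of 13 minus-strand around the second. The second probe sets had differences of -0.63 against 0.71 for MMP24 and -0.14 against -1.40 for TIMP3. Whether the second probe sets read the opposite strand was not tested.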
